A study of Mus musculus with 6 samples.

Results

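The TGF-beta and BMP pathway was followed here through 53 genes across the differentiation of mouse osteoblasts with and without cabozantinib. The genes were taken by name: 17 ligands, 11 receptors, 9 antagonists, 8 Smads, 4 Id target genes and 4 latent TGF-beta binding proteins. All 53 had at least 1 probe on the arrays, and 50 of them were among the 23075 genes and transcripts tested. The cells were primary mouse osteoblasts (PMOs) from the calvariae of CD1 pups aged 2 to 5 days. Undifferentiated PMOs had been grown in MEM with 10% FBS until confluent, differentiated PMOs had then spent 30 days in differentiation medium, and cabozantinib PMOs had spent the same 30 days in that medium with cabozantinib (XL184; 100 nM in the methods of the study), an inhibitor of the kinases VEGFR2 and MET. Each group was represented by 2 one-color Agilent arrays, 6 in all, and nothing in the labels says whether the 2 arrays of a group came from separate cultures or how many pups were pooled, so the p-values measure the spread between these arrays, which may be technical.

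TGF-beta, activin and nodal ligands bind pairs of type I and type II receptor kinases that phosphorylate Smad2 and Smad3, whereas most BMP and GDF ligands act through receptors that phosphorylate Smad1, Smad5 and Smad9. Both branches share Smad4, are restrained by the inhibitory Smad6 and Smad7, and are limited outside the cell by antagonists such as noggin, gremlin and follistatin that trap ligands. In bone, TGF-beta is laid down in the matrix in a latent form held by binding proteins, BMPs drive osteoblast differentiation, and the Id genes are rapid transcriptional targets of BMP signaling.

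Levels are given as the log2 of the background-corrected signal minus the log2 of the 75th percentile of all non-control spots on the same array, so that 0 is the level of that percentile and 1 unit is a doubling. Each gene is represented by its brightest probe, and levels are compared for 1 gene between arrays, never between genes. A difference was called when its adjusted p (limma, Benjamini-Hochberg over all probes tested) was under 0.05, and the criterion named by the study, more than 2-fold with an unadjusted p under 0.05, is given beside it. Between 58.8% and 72.9% of spots were well above background on an array, and no spot was saturated. The undifferentiated and differentiated arrays lay on 1 slide and both cabozantinib arrays on another, so slide and cabozantinib cannot be told apart. In such bulk RNA, fewer cells of a type and less RNA per cell cannot be told apart either.

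Signal well above background was found on each of the 6 arrays for 45 of the 53 genes. The BMP antagonist noggin (Nog) and the pseudoreceptor Bambi were not well above background on any array, and the activin type I receptor Acvr1b was above it on 1 array, so these 3 were not tested. Every group therefore gave a measurement for all 8 Smads, all 4 Id genes and all 4 latent binding proteins. For 14 genes a second probe was present, and 10 of these pairs were tested on both probes.

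**Figure D1:**
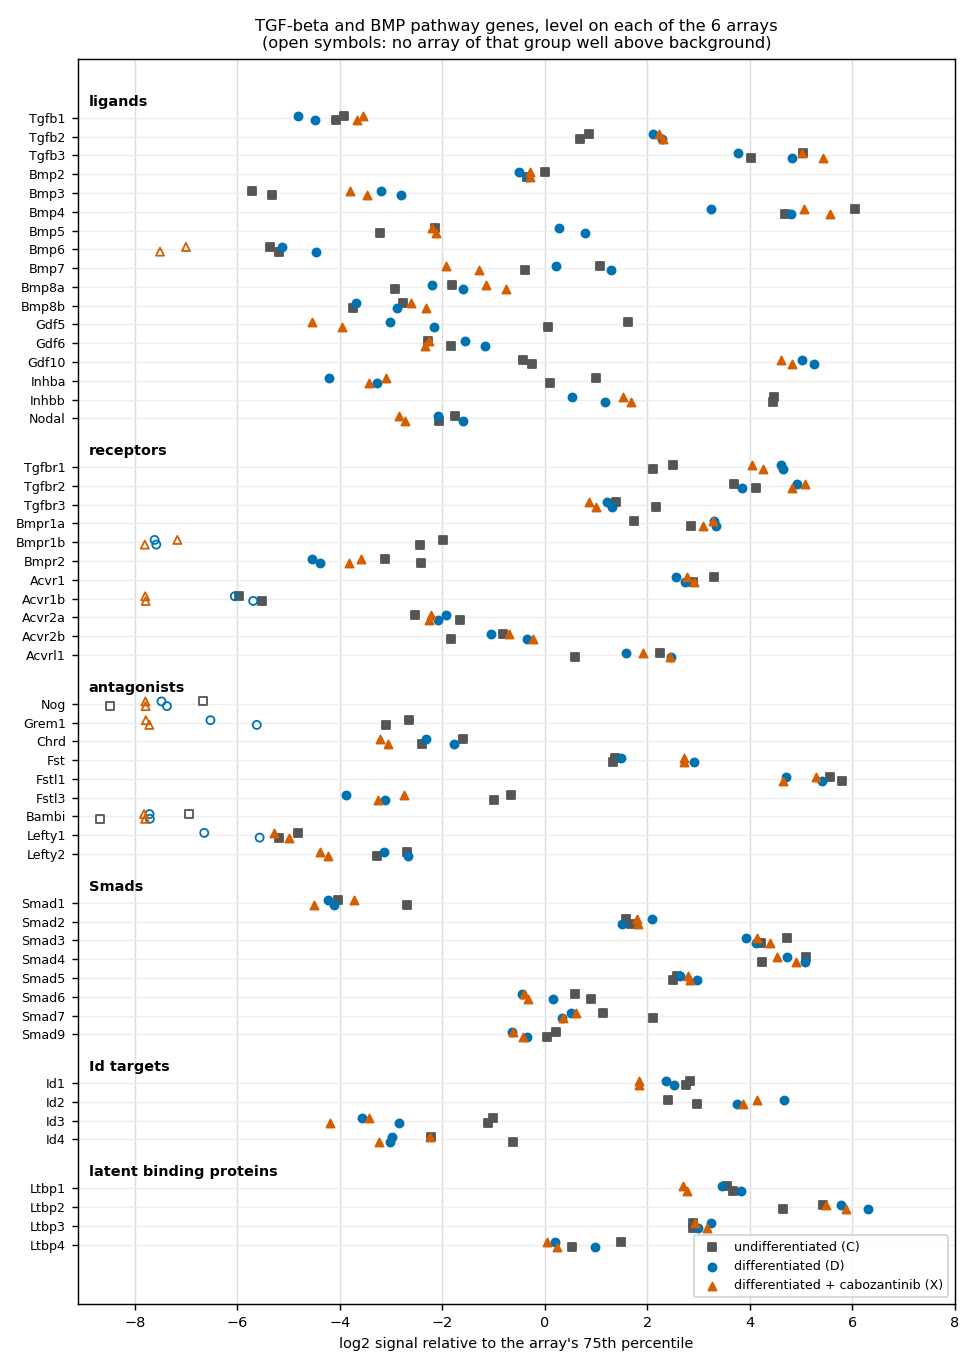
Level of each of the 53 genes on each of the 6 arrays, as log2 signal relative to the array's 75th percentile (horizontal axis), by class; squares are undifferentiated, circles differentiated and triangles cabozantinib PMOs, and open symbols mark a group in which no array was well above background. Gdf10 moves from about the 75th percentile to near 5, Bmpr1b and Grem1 drop to background after differentiation, and the arrays of each Smad lie within 2 units of each other.

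The first comparison asked how the pathway differs between undifferentiated and differentiated PMOs. In it 11 of the 50 genes tested were called, 4 higher and 7 lower in differentiated PMOs. Gdf10, Bmp5, Bmp3 and the receptor Tgfbr1 were higher, and Inhba, Inhbb, Gdf5, Bmpr1b, Grem1, Fstl3 and Id3 were lower. Of these, Bmpr1b and Grem1 cleared the background filter only through the undifferentiated arrays, where they were high, so their calls are no support. Over all genes tested 9.4% were called, 1164 higher and 1004 lower. By the 2-fold criterion 16 of the 50 genes passed, 6 higher and 10 lower, against 20.1% of all genes. The median log2 difference was -0.04 over the 50 genes and 0.10 over all genes. Both arrays of differentiated PMOs lay above both undifferentiated arrays for 13 of the 53 genes, below them for 20 and among them for 20. The same count was not made over all genes, so it is not read as a result about the pathway. The 53 include Nog, Bambi and Acvr1b, which were not tested. The call count rested on 2 arrays in particular: it was 6 without the first differentiated array and 18 without the first undifferentiated array, against 6.44% and 20.1% of all genes.

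Among the ligands 6 of 17 were called, 3 in each direction, and the median log2 difference was 0.08. Gdf10 (BMP3b), a divergent ligand of the BMP3 subgroup, had the greatest rise of the 50 genes tested. Its level was -0.42 and -0.25 in undifferentiated PMOs, 5.03 and 5.26 in differentiated PMOs and 4.60 and 4.83 with cabozantinib. The groups did not overlap, and the rise with differentiation was 44.7-fold (log2 5.48, SE 0.48, adjusted p = 0.000421). Gdf10 was called in 16 of the 18 alternative settings, the exceptions being both forms of the single-probe t-test.

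Bmp5, a BMP of the 60A subgroup that carries a known role in skeletal shape, read -2.14 and -3.22 in undifferentiated PMOs and 0.28 and 0.79 in differentiated PMOs. This was a 9.30-fold rise (log2 3.22, SE 0.55, adjusted p = 0.00639). Bmp3, an abundant bone matrix ligand that opposes osteogenic BMPs, read -5.72 and -5.32 before differentiation, where 1 of the 2 arrays was well above background, and -3.20 and -2.81 after it. Its rise was 5.72-fold (log2 2.52, SE 0.48, adjusted p = 0.0105), and it was 0.60 on the log2 scale with normexp background correction, where it was not called. Tgfb2, which signals through the TGF-beta receptors, passed only the 2-fold criterion, with 0.87 and 0.69 against 2.11 and 2.29, a log2 difference of 1.42 (SE 0.48, adjusted p = 0.112).

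The activin subunits moved the other way. Inhba, which encodes the beta A subunit of activin A, read 0.99 and 0.10 in undifferentiated PMOs, -4.22 and -3.27 in differentiated PMOs and -3.09 and -3.44 with cabozantinib. It was 19.5-fold lower after differentiation (log2 -4.29, SE 0.57, adjusted p = 0.00225). Inhbb, the beta B subunit, read 4.48 and 4.45, then 0.52 and 1.18, then 1.53 and 1.68, and was 12.2-fold lower after differentiation (log2 -3.61, SE 0.49, adjusted p = 0.00248). For both subunits every array of either differentiated group lay below both undifferentiated arrays.

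Gdf5, a ligand of joint and cartilage development, also fell. Its brighter probe read 1.62 and 0.07 in undifferentiated PMOs, -3.02 and -2.15 in differentiated PMOs and -4.53 and -3.96 with cabozantinib, a 10.8-fold difference for the first pair of groups (log2 -3.43, SE 0.64, adjusted p = 0.00976). The second Gdf5 probe, which was dimmer, read -3.91 and -5.02 before and -5.17 and -4.54 after differentiation, a log2 difference of -0.39, so the 2 probes disagreed on the size. The remaining 10 ligands passed neither rule, and their log2 differences ran from -1.34 (Bmp4) to 0.69 (Gdf6).

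Among the 10 receptors tested, the TGF-beta type I receptor Tgfbr1 was called higher and the BMP type IB receptor Bmpr1b lower. Tgfbr1 read 2.50 and 2.12 in undifferentiated, 4.61 and 4.65 in differentiated and 4.04 and 4.27 in cabozantinib PMOs. Its rise was 5.02-fold (log2 2.33, SE 0.49, adjusted p = 0.0165). A second Tgfbr1 probe was not well above background on any array and so does not show this rise. Bmpr1b read -1.99 and -2.43 in undifferentiated PMOs and was not well above background on any of the other 4 arrays, where it read between -7.80 and -7.17.

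Bmpr1b was thus at least 32.4-fold lower in differentiated PMOs (adjusted p = 0.000441). A bound takes, for the dim group, the higher of its own signal and the lowest signal well above background on each array. Such a bound allows for background only in part. Grem1 read -6.52 and -5.62 in differentiated PMOs, higher than that lowest signal, and was still not well above background. Every fold given as at least is therefore relative to that lowest signal and is not a strict minimum. Nor does such a bound allow for the spread between arrays. Where the dim group's own signal was the higher, the result is the fitted fold itself and is given as fitted, not as a bound. Because Bmpr1b cleared the background filter only through the undifferentiated arrays, its p-value is no support for this fall. The type II receptor Bmpr2 passed only the 2-fold criterion, at -3.12 and -2.42 against -4.54 and -4.38 (log2 -1.70, SE 0.50, adjusted p = 0.0688). The BMP type IA receptor Bmpr1a, which serves many of the same ligands as Bmpr1b, stood at 1.74 and 2.86 before and 3.31 and 3.34 after differentiation (log2 1.02, SE 0.53, adjusted p = 0.332). The other 6 receptors tested, among them Tgfbr2, Acvr1, Acvrl1 and both activin type II receptors, had log2 differences between -0.51 and 0.63 on the probe used for each gene. A second, dimmer Tgfbr2 probe gave -1.33 (adjusted p = 0.481) where the brighter one gave 0.48, with 1 differentiated array well above background.

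Of the 7 antagonists tested, Grem1 and Fstl3 were called, both lower, and the class median was -0.62 on the log2 scale. Gremlin (Grem1), which traps BMP2, BMP4 and BMP7, read -2.64 and -3.10 in undifferentiated PMOs and was not well above background on any of the other 4 arrays. As fitted, Grem1 was 9.20-fold lower after differentiation (adjusted p = 0.00547), with a 95% confidence interval from log2 -4.39 to -2.01. Follistatin-like 3 (Fstl3), a binder of activin, read -0.67 and -1.00 before and -3.89 and -3.11 after differentiation, a 6.35-fold difference (log2 -2.67, SE 0.53, adjusted p = 0.0126).

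The activin binder and the 2 activin subunits thus all stood lower in differentiated PMOs, on both arrays. Follistatin itself (Fst) passed neither rule, with 1.37 and 1.33 against 1.48 and 2.92 (log2 0.85, SE 0.55, adjusted p = 0.481). The nodal antagonist Lefty1 was above background on 1 undifferentiated and on neither differentiated array. As fitted, Lefty1 was 2.15-fold lower (adjusted p = 0.289), with a 95% confidence interval from log2 -2.31 to 0.10, which includes no change. Chordin (Chrd), Lefty2 and Fstl1 had log2 differences of -0.04, 0.09 and -0.62.

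None of the 8 Smads was called. The TGF-beta Smads Smad2 and Smad3 had log2 differences of 0.16 and -0.44, the BMP Smads Smad1, Smad5 and Smad9 of -0.81, 0.26 and -0.63, and the shared Smad4 of 0.23. Both inhibitory Smads, which are themselves induced by the pathway, stood below the undifferentiated arrays on both differentiated arrays. Smad7 read 1.13 and 2.11 against 0.51 and 0.33 and passed the 2-fold criterion (log2 -1.20, SE 0.53, adjusted p = 0.233), while Smad6 read 0.59 and 0.90 against -0.45 and 0.15 and did not (log2 -0.89, adjusted p = 0.367). On the probe used for each gene the latent binding proteins passed neither rule. Ltbp2 had the largest difference there, with 5.43 and 4.65 against 5.79 and 6.31 (log2 1.01, SE 0.53, adjusted p = 0.346), and Ltbp1, Ltbp3 and Ltbp4 lay between -0.42 and 0.23. The second, dimmer Ltbp4 probe passed the 2-fold criterion (log2 -1.49, limma unadjusted p = 0.0146, adjusted p = 0.106). The second Ltbp3 probe gave -0.92 (adjusted p = 0.34), opposite in sign to the brighter one.

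**Figure D2:**
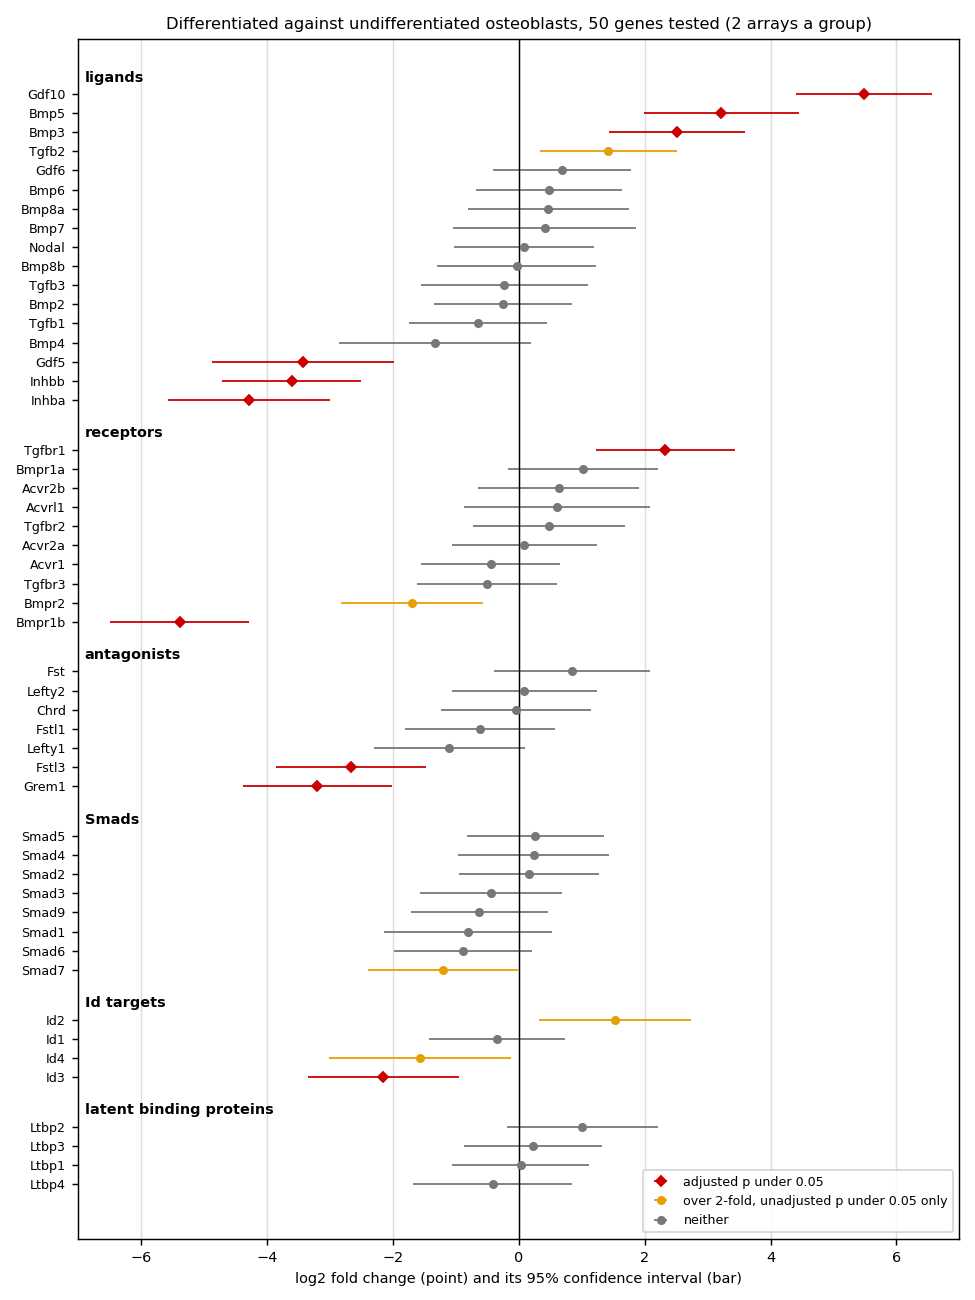
Log2 fold change of differentiated against undifferentiated PMOs (points) with its 95% confidence interval (bars) for the 50 genes tested, by class; diamonds are called at an adjusted p under 0.05 and orange points pass only the 2-fold criterion. Gdf10 lies farthest right at 5.48, the fitted values of Bmpr1b, Grem1 and Lefty1 rest on differentiated arrays at background, and no Smad or latent binding protein is called.

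The 4 Id genes, inhibitors of basic helix-loop-helix factors, did not move together with differentiation. Id3 was called lower, Id2 and Id4 passed only the 2-fold criterion in opposite directions, and Id1 passed neither rule. The RefSeq promoters of Id2, Id3 and Id4 are shown because these genes diverged although all are known BMP targets; Id1 has no entry. They are the 250 bases upstream of the annotated start (GRCm38.p6), 5′ to 3′ on the gene's strand, with GGCGCC, an element that BMP Smads recognize, and GTCTG or its reverse complement CAGAC, the Smad-binding element, in capitals; GGCGCC is its own reverse complement. Id2 is at chr12:25096093-25096342 on the minus strand, Id3 at chr4:136143572-136143821 on the plus strand and Id4 at chr13:48260866-48261115 on the plus strand.
Id2: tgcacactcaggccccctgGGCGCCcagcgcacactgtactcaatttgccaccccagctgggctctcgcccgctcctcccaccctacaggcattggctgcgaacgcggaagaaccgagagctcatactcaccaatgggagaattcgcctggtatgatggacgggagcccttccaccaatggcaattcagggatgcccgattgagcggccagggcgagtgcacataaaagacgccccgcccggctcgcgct
Id3: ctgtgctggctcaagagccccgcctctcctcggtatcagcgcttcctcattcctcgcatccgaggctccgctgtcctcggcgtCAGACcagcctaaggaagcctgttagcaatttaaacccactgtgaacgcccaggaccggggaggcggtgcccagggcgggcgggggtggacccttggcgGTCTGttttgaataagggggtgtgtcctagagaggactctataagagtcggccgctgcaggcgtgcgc
Id4: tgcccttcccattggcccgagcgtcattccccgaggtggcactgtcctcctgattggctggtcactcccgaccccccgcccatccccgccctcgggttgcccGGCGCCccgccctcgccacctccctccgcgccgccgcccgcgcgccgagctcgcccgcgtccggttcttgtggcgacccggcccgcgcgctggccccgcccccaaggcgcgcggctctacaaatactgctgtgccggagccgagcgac

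Id2 and Id4 each held 1 GGCGCC in this window and no GTCTG or CAGAC, and Id3 held 2 of the latter and no GGCGCC. Over all 32851 promoters of the same length, 9.6% held GGCGCC and 42.2% held GTCTG or CAGAC. Of the 44 promoters of the pathway genes in the table, 11 held GGCGCC and 20 held GTCTG or CAGAC. The 2 promoters with GGCGCC belonged to genes whose levels went in opposite directions. These matches describe letters in the window and not occupied sites.

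Id3 read -1.01 and -1.10 in undifferentiated, -3.57 and -2.85 in differentiated and -3.43 and -4.19 in cabozantinib PMOs, a 4.45-fold fall with differentiation (log2 -2.15, SE 0.54, adjusted p = 0.0337). Id2 read 2.40 and 2.97, then 4.66 and 3.75, then 4.13 and 3.87 (differentiated against undifferentiated log2 1.52, SE 0.54, adjusted p = 0.125). Id4 read -2.23 and -0.63, then -2.99 and -3.03, then -2.23 and -3.23 (log2 -1.58, SE 0.64, adjusted p = 0.19). Id2 was thus higher and Id3 and Id4 lower on both differentiated arrays than on both undifferentiated arrays. Id1, the most used reporter of BMP signaling among the 4, read 2.83 and 2.75 before and 2.36 and 2.53 after differentiation (log2 -0.35, SE 0.48, adjusted p = 0.85).

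**Figure D3:**
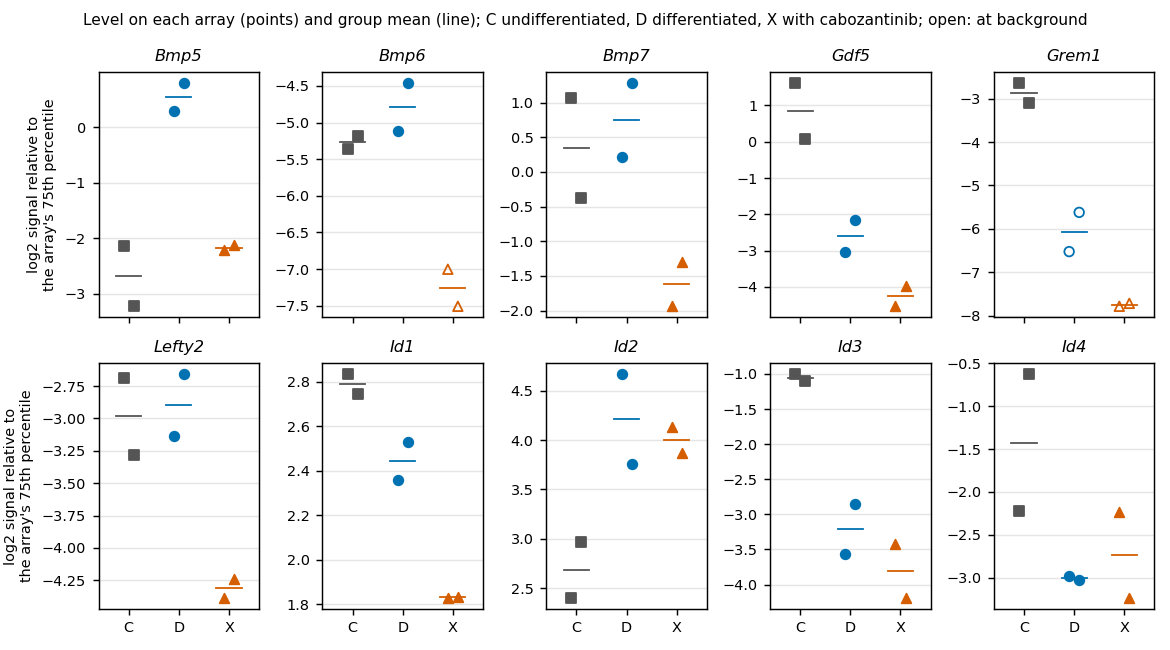
Level on each array (points) and group mean (lines) of the 6 genes that passed the 2-fold criterion between cabozantinib and differentiated PMOs and of the 4 Id genes, as log2 signal relative to the array's 75th percentile; C is undifferentiated, D differentiated and X cabozantinib, each panel has its own vertical scale that does not start at 0, and open symbols mark groups at background. Bmp5 is highest in D and overlaps C in X, while Bmp6, Bmp7 and Lefty2 are lowest in X.

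The second comparison asked how cabozantinib during the 30 days of differentiation was associated with pathway expression. None of the 50 genes was called by limma, and 6 passed the 2-fold criterion, all with a negative fitted difference. They were the ligands Bmp5, Bmp6, Bmp7 and Gdf5 and the antagonists Lefty2 and Grem1, of which Grem1 was not above background on any array of either group and so has no measured fold. On the probe used for each gene, no other of the 50 had an unadjusted p under 0.05. Over all genes 0.00433% were called by the adjusted p, which is 1 gene, and 23.3% passed the 2-fold criterion, 589 higher and 4785 lower. The adjusted p-values were crowded just past the threshold: 1067 genes had one under 0.06, Bmp5 and Bmp6 among them. For Bmp6 it is no support, because the gene cleared the background filter only with the differentiated arrays, where it was high. Without the replicate block 4 of the 50 genes were called (Bmp5, Bmp6, Bmp7 and Grem1), against 12.4% of all genes. Without the first or the second undifferentiated array 7 and 8 were called, each against 25.1% of all genes, and without the first differentiated array 2, against 1.52%.

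The deficit of signal with cabozantinib over all genes followed the brightness of the probe. Over all genes tested the median log2 difference was -0.30; with the genes split into 3 equal groups by mean signal it was -1.15 in the dimmest, -0.22 in the middle and -0.12 in the brightest group. Of the dimmest group 48.8% passed the 2-fold criterion, against 18.7% and 2.35% in the other two. Bmp6 and Grem1 were in the dimmest group, Bmp5, Bmp7, Gdf5 and Lefty2 in the middle group, and none of the 24 pathway genes in the brightest group passed. The part of brightness and slide in these differences was not tested.

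**Figure D4:**
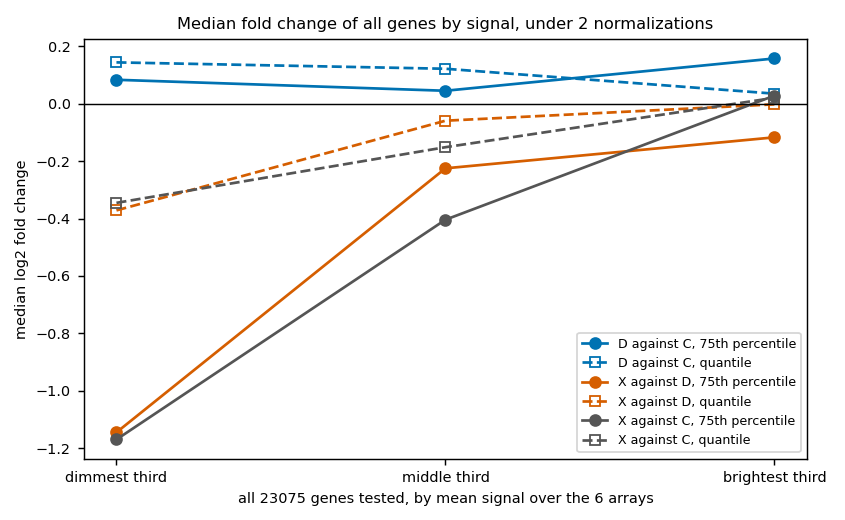
Median log2 fold change over all genes tested (vertical axis) by mean signal in 3 equal groups (horizontal axis), for the 3 comparisons, with the 75th percentile scaling (solid lines) and quantile normalization (dashed lines). On the solid lines both comparisons with cabozantinib lie at -1.17 and -1.15 in the dimmest group and at 0.03 and -0.12 in the brightest, while differentiated against undifferentiated stays between 0.05 and 0.16.

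Which pathway genes passed the criterion depended on the scaling, while their signs did not. With quantile normalization 10 of the 50 genes passed it, against 15.3% of all genes, and none was called. Of these 10, Bmp4, Bmp8b, Bmpr2, Lefty1, Tgfb1 and Tgfb3 were higher with cabozantinib and Bmp5, Bmp6 and Bmp7 lower, the other being Grem1, which was at background in both groups. The share of lower among all genes past the criterion was 89.0% with the 75th percentile and 66.0% with quantile normalization. With normexp background correction Bmp5 and Bmp7 alone passed.

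Bmp5 had the lowest unadjusted p of the 50 genes in this comparison. It read 0.28 and 0.79 in differentiated PMOs and -2.21 and -2.13 with cabozantinib, 6.52-fold lower (log2 -2.71, SE 0.55, adjusted p = 0.0511). Relative to the median gene its difference was -2.41, and with quantile normalization it was -2.49 (adjusted p = 0.178). It was called without the replicate block (adjusted p = 0.0246) and in the fit of only the 4 arrays compared (adjusted p = 0.0251). The cabozantinib arrays lay close to the higher of the undifferentiated arrays, and between those groups Bmp5 differed by 0.51 (SE 0.55, adjusted p = 0.583).

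Bmp7, which has osteogenic activity, read 1.07 and -0.38 in undifferentiated, 0.22 and 1.28 in differentiated and -1.94 and -1.29 in cabozantinib PMOs. Both cabozantinib arrays were below the other 4, and the difference from differentiated PMOs was 5.16-fold (log2 -2.37, SE 0.65, adjusted p = 0.0736). Bmp6, of the same 60A subgroup as Bmp5 and Bmp7, read -5.12 and -4.46 in differentiated PMOs and was not well above background on either cabozantinib array, at least 5.34-fold lower (adjusted p = 0.0511). Bmp6 would not have cleared the background filter without the differentiated arrays, where it was high, so its p-value is no support for this difference. Bmp8a and Bmp8b, which belong to the same subgroup and are near copies of each other, so that their probes may share targets, were higher on both cabozantinib arrays without passing. Bmp8a read -2.20 and -1.59 without and -1.15 and -0.75 with cabozantinib (log2 0.95, SE 0.57, adjusted p = 0.384).

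Gdf5 stood at -3.02 and -2.15 without and -4.53 and -3.96 with cabozantinib (log2 -1.66, SE 0.64, adjusted p = 0.16), and its second probe differed by -0.44. Lefty2, an antagonist of nodal, read -3.13 and -2.66 without and -4.38 and -4.24 with cabozantinib (log2 -1.41, SE 0.51, adjusted p = 0.136). Its target ligand Nodal and the BMP antagonist Chrd were also lower on both cabozantinib arrays without passing, with log2 differences of -0.95 and -1.09. Lefty1 was above background on both cabozantinib arrays and on neither differentiated array. As fitted, Lefty1 was 1.97-fold higher (adjusted p = 0.33), with a 95% confidence interval from log2 -0.23 to 2.18, which includes no change. Fst, Fstl1 and Fstl3 differed by 0.52, -0.08 and 0.50. Grem1 was below background in both groups and is given no fold.

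Other ligands read higher with cabozantinib on both arrays, none past either rule. Tgfb1, the main TGF-beta stored in bone matrix, read -3.91 and -4.08 in undifferentiated, -4.81 and -4.47 in differentiated and -3.54 and -3.66 in cabozantinib PMOs (cabozantinib against differentiated log2 1.04, SE 0.49, adjusted p = 0.242). Bmp4, an osteogenic BMP, read 3.25 and 4.81 without and 5.05 and 5.56 with cabozantinib (log2 1.28, SE 0.68, adjusted p = 0.312). Tgfb3 read 3.77 and 4.82 without and 5.03 and 5.43 with cabozantinib (log2 0.93, SE 0.59, adjusted p = 0.422). Bmp2 differed by 0.14, with a 95% confidence interval from -0.96 to 1.23. The other ligands tested had differences between -0.93 (Gdf6) and 0.82 (Bmp8b).

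No receptor passed with cabozantinib. Bmpr2 read -4.54 and -4.38 without and -3.59 and -3.83 with it (log2 0.76, SE 0.50, adjusted p = 0.448), and the other 9 receptors had log2 differences between -0.48 and 0.56. The 8 Smads had log2 differences from -0.22 (Smad6) to 0.24 (Smad3), with standard errors from 0.48 to 0.59. Differences of up to about 1 unit in either direction lay within the confidence intervals, so small changes of Smad transcripts were not detectable with these arrays. A second, dim Smad3 probe, above background on 2 arrays, read -5.86 and -4.12 without and -7.74 and -6.82 with cabozantinib. It passed the 2-fold criterion (log2 -2.29, limma unadjusted p = 0.00123, adjusted p = 0.052), which the bright probe does not. The second Smad1 probe likewise passed it (log2 -1.46, limma unadjusted p = 0.0298, adjusted p = 0.162) where the first gave 0.06. The second probes of Smad4 and Smad5 gave -0.75 and -0.84 where the brighter ones gave -0.18 and 0.02.

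Id1 was at 1.83 on both cabozantinib arrays against 2.36 and 2.53 without it (log2 -0.61, SE 0.48, adjusted p = 0.549). Id2, Id3 and Id4 differed by -0.21, -0.60 and 0.27. On the probe used, all 4 latent binding proteins were lower on average with cabozantinib, Ltbp1 most, at 3.46 and 3.83 without and 2.70 and 2.78 with it (log2 -0.90, SE 0.48, adjusted p = 0.313), although the sign of Ltbp3 turned under quantile normalization. The second Ltbp3 probe was higher on both cabozantinib arrays (log2 0.65, adjusted p = 0.512), and the second Ltbp4 probe gave -0.27. Over the classes the median log2 differences were 0.07 for ligands, 0.13 for receptors, -0.08 for antagonists, 0.02 for Smads, -0.40 for Id genes and -0.41 for latent binding proteins, against -0.30 over all genes.

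**Figure D5:**
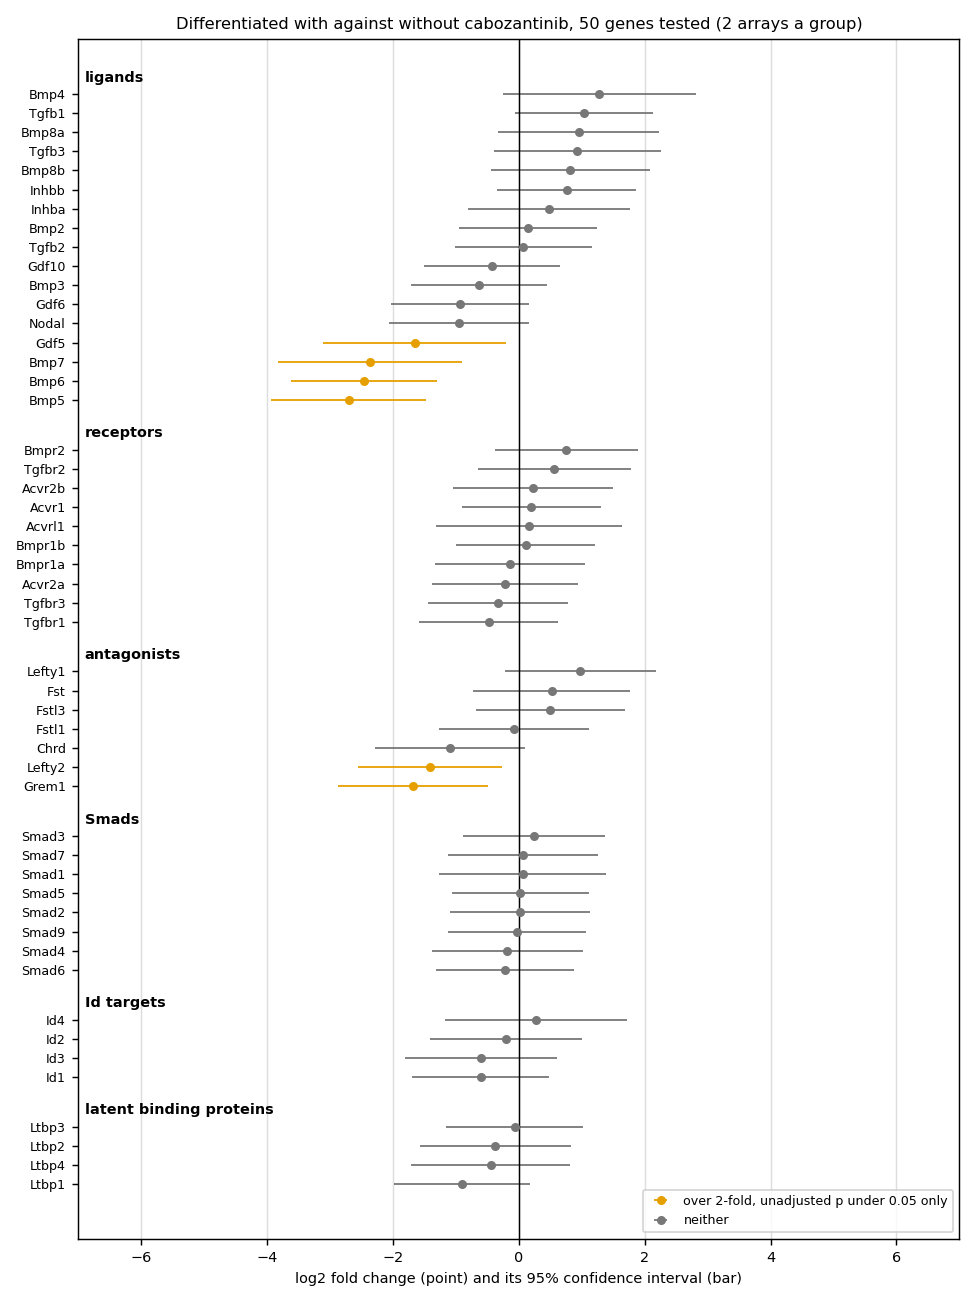
Log2 fold change of cabozantinib against differentiated PMOs (points) with its 95% confidence interval (bars) for the 50 genes tested, by class; orange points pass the 2-fold criterion and no gene is called. The 6 orange points lie between -2.71 (Bmp5) and -1.41 (Lefty2), the values of Bmp6, Grem1, Bmpr1b and Lefty1 rest on arrays at background, and the 8 Smads lie between -0.22 and 0.24.

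The remaining comparison set cabozantinib PMOs against undifferentiated PMOs; it shares its arrays with the other two and is no independent evidence. Of the 50 genes 11 were called, 3 higher (Gdf10, Bmp3 and Tgfbr1) and 8 lower (Bmpr1b, Grem1, Gdf5, Inhba, Inhbb, Id3, Fstl3 and Bmp6). Over all genes 13.2% were called. By the 2-fold criterion 18 passed, 7 higher and 11 lower, against 31.8% of all genes. Without the second cabozantinib array 5 genes were called and 9 passed the criterion, and without the first 6 and 11, against 2.89% and 4.89% of all genes called. Without the first or the second undifferentiated array 14 and 20 were called against 16.9% and 38.8% of all genes, and with normexp background correction 4 against 2.49%. With quantile normalization 9 of the 50 genes were called against 5.69% of all genes, and the split over all genes called went from 1035 higher and 2000 lower to 947 higher and 365 lower.

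The values ran close to those of differentiation alone for Gdf10 (33.2-fold higher, log2 5.05, adjusted p = 0.000815) and for Tgfbr1 (3.60-fold higher, log2 1.85, adjusted p = 0.0389). Inhba was 14.0-fold lower (log2 -3.81, adjusted p = 0.00498) and Inhbb 7.23-fold lower (log2 -2.85, adjusted p = 0.00904). Bmpr1b was at least 33.9-fold lower (adjusted p = 0.00076) and Grem1 at least 22.0-fold lower (adjusted p = 0.00136). Both cleared the background filter only through the undifferentiated arrays, so their p-values are no support for these falls. The calls of Gdf10, Tgfbr1, Inhba and Inhbb thus stood in PMOs differentiated with cabozantinib as well as without it.

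Gdf5 had its lowest levels with cabozantinib and was 34.1-fold lower than in undifferentiated PMOs (log2 -5.09, SE 0.64, adjusted p = 0.00261), whereas its second probe differed by -0.83 (adjusted p = 0.346). Id3 was 6.73-fold lower (log2 -2.75, SE 0.54, adjusted p = 0.0143) and Fstl3 4.49-fold lower (log2 -2.17, SE 0.53, adjusted p = 0.0302). Bmp6 was at least 3.83-fold lower (adjusted p = 0.0364), with 1 of the 2 undifferentiated arrays well above background. With quantile normalization neither Bmp6 (log2 -0.93, adjusted p = 0.233) nor Fstl3 (log2 -1.82, adjusted p = 0.0703) was called. Bmp3 was 3.69-fold higher (log2 1.88, SE 0.48, adjusted p = 0.0342). Tgfb2, Bmp8a, Fst and Id2 passed only the 2-fold criterion upward and Bmp7, Lefty2 and Smad6 downward. A second Ltbp4 probe was called lower (log2 -1.76, adjusted p = 0.0475) where the brighter one gave -0.87. Acvr1b, not tested, read -5.96 and -5.53 in undifferentiated and -7.80 and -7.79 in cabozantinib PMOs. Only 1 of these arrays was well above background for Acvr1b, so it is given no fold.

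Several other genes of the pathway were measured from lists of its further ligands, receptors, antagonists and targets. With differentiation 3 of 11 further antagonists were called, 2 higher and 1 lower. The 2 called higher were the chordin-like antagonists. Chordin-like 1 (Chrdl1) read -4.63 and -4.45 in undifferentiated, 0.27 and 1.39 in differentiated and -0.42 and -0.54 in cabozantinib PMOs, a 41.2-fold rise with differentiation (log2 5.37, SE 0.52, adjusted p = 0.000591). Chordin-like 2 (Chrdl2) went from background to -3.23 and -2.12, at least 22.2-fold higher (adjusted p = 0.00144). Because Chrdl2 cleared the background filter only through the groups where it was high, its call and p-value are no support for this rise.

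Endoglin (Eng), a co-receptor for TGF-beta, was the 1 of 6 further receptors called, at -1.43 and -2.06 before and -5.13 and -4.53 after differentiation (log2 -3.09, SE 0.52, adjusted p = 0.00592). Of 17 activation and matrix genes 3 were called: Nrros, a latent TGF-beta anchor of myeloid cells, rose 11.1-fold (log2 3.48, adjusted p = 0.00299), and Mmp2 and Fmod were lower by log2 -2.92 and -2.83 (adjusted p = 0.0136 and 0.0284). Of 14 TGF-beta target genes 2 were called, both lower, Cdkn1a (log2 -2.16, adjusted p = 0.0308) among them. Of 12 BMP target genes Msx1 (log2 -2.22, adjusted p = 0.0197) and Msx2 (log2 -1.88, adjusted p = 0.0417) were called lower. None of 8 further ligands and none of 16 intracellular regulators was called; the lowest unadjusted p-values were those of Gdf2 (at least 2.76-fold higher) and Gdf15 (log2 1.45), and of the Smad ubiquitin ligases Smurf2 (log2 -3.46) and Smurf1 (log2 -1.35).

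Between cabozantinib and differentiated PMOs no gene of these lists was called. The lowest unadjusted p-values in the matrix list were those of the matrix proteases Mmp14 and Mmp9, at background on both cabozantinib arrays. Mmp14 was 4.71-fold lower as fitted and Mmp9 at least 3.54-fold lower (adjusted p = 0.0557 and 0.0658). Among the further receptors the lowest p-values were those of Amhr2 (log2 1.57, adjusted p = 0.101) and Rgmb (4.32-fold lower as fitted, adjusted p = 0.164). Among the further antagonists they were those of Chrdl1 (log2 -1.31, adjusted p = 0.17) and Sostdc1 (log2 -1.60, adjusted p = 0.199). The TGF-beta target Cdkn1a differed by 0.69 on the log2 scale. The lowest p-values in the other lists were those of Gdf15 (log2 -1.31) and Bmp10 (log2 -1.29), of the BMP targets Hamp (at least 2.66-fold lower) and Dlx5 (log2 -1.05), and of the corepressors Tgif2 (log2 -1.36) and Tgif1 (log2 -0.87).

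Against undifferentiated PMOs, several such genes were called in cabozantinib PMOs. Chrdl1 (log2 4.06), Nrros (log2 3.24), the matrix proteoglycan Aspn (log2 2.69) and Postn (log2 1.68, adjusted p = 0.0484) were higher, as were Chrdl2 (at least 43.9-fold) and Gdf2 (at least 3.06-fold). Chrdl2 and Gdf2 were at background in undifferentiated PMOs. They cleared the filter only through the other groups, so their calls are no support. Eng (log2 -2.14), Sp7 (log2 -2.06) and Atoh8 (3.68-fold as fitted) were lower.

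The cells carried osteoblast markers in every group, and markers of other cell types moved with differentiation. The summed linear signal of 11 osteoblast markers, in units of the 75th percentile, was 242 to 528 in undifferentiated, 367 to 538 in differentiated and 457 to 524 in cabozantinib PMOs. The transcription factors Runx2 and Sp7 were dim, above background on 3 and 4 of the 6 arrays. As fitted they were 3.82-fold and 3.63-fold lower with differentiation, past the 2-fold criterion and not called. With differentiation 8 of the 11 markers were higher and 3 lower. Of these 11 markers 5 were called higher with differentiation, among them Bglap2 (osteocalcin 2), at -0.20 and -0.48 before and 4.98 and 4.44 after, and 1 was called lower, Spp1 (osteopontin), at 3.52 and 5.15 before and 1.06 and 0.26 after. The summed signal of 7 macrophage markers was 20.4 to 40.9 in undifferentiated, 178 to 270 in differentiated and 159 to 192 in cabozantinib PMOs, with all 7 above background on every differentiated and cabozantinib array. The sum of 6 osteoclast markers was 31.0 to 51.0, 120 to 171 and 108 to 129, and that of 7 adipocyte markers 4.85 to 5.48, 59.1 to 82.0 and 49.6 to 51.4. With differentiation 6 of 7 macrophage, 4 of 5 osteoclast and 5 of 7 adipocyte markers tested were higher. The others were lower, namely Lyz2 (2.45-fold), Ocstamp (1.15-fold), Plin1 (2.90-fold) and Cebpa (1.91-fold). Of 7 chondrocyte markers 3 were called higher with differentiation, Matn1, Col10a1 (6.34-fold) and Col9a1 (5.02-fold), and 3 in cabozantinib against undifferentiated PMOs. Over these 7 markers the difference with differentiation was upward for 4 and downward for 3, with a median log2 difference of 0.10. Their summed signal was 84.0 to 179 in undifferentiated, 108 to 198 in differentiated and 119 to 152 in cabozantinib PMOs, so the ranges overlapped. For 7 endothelial markers the summed signal was between 0.68 and 1.52 on all arrays, with Tek and Tie1 on none. The part of these cells in the differences of Gdf10, Bmp5, Nrros and the other pathway genes was not tested.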

How the data were processed

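RNA from 6 PMO samples was hybridized by the authors to one-color (Cy3) Agilent arrays. The deposited scanner files hold the processed spot intensity from Feature Extraction 11.0.1.1, background-corrected and not normalized between arrays. A deposited table holds log2 values normalized by the authors (column medians from 7.50 to 7.51; its normalization is not given in the sources used here), which tracked the log2 scanner signal closely and served as an alternative. Groups came from the sample labels. Control spots were removed, log2 intensities were reduced by each array's 75th percentile, and spots of a probe were averaged. Probes were named through RefSeq accessions (GRCm38.p6 gene table), which matched 27228 of 39429 probes (69.1%). Of the probes, 27218 cleared the background flag on 2 or more arrays and were fitted with limma 3.58.1 in R 4.3.3, with condition and replicate number as terms, since the methods of the study name a paired t-test. A gene took its probe of highest mean signal, leaving 23075 genes and transcripts, 16131 of them with a symbol. The pipeline was tested on simulated data. Full statistics were planned for up to 10 genes past a threshold in each comparison, in order of unadjusted p, and for called genes (otherwise the 2 lowest p) of the other lists; others were added to describe their class, after their values were seen. The 53 genes and the other lists were chosen with earlier results of these data known. The number of arrays limits the precision. Some genes of the other lists are not reported here. Promoters came from a RefSeq table that held 36 of the 53 genes. Alternatives changed the scaling, background correction, probe filter, probe choice, block, arrays fitted, variance model and test.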

Additional observations from a re-analysis of the deposited data

How the results depend on the processing

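With differentiation, 11 of the 50 genes were called and 16 passed the 2-fold criterion. The counts called were 6 with normexp background correction (3.75% of all genes) and 0 with either form of the methods' t-test (0% of all genes). With the paired form 3 passed the criterion (3.70% of all genes). Between cabozantinib and differentiated PMOs, against 0 called and 6 past the criterion, 7 were called with only the arrays compared (25.2% of all genes), 2 with probes averaged per gene (4.33%) and 1 with a variance trend and robust fit (2.21%). The criterion counts there were 10 with quantile normalization (15.3% of all genes), 10 with the authors' values (15.3%) and 2 with normexp (2.35%). They were 4 with the unpaired (17.0%) and 0 with the paired t-test (9.78%). Between cabozantinib and undifferentiated PMOs, against 11 and 18, the counts called were 4 with normexp (2.49% of all genes) and 7 with no filter on dim probes (3.47%). They were 7 with probes above background on all arrays (7.53%) and 0 with the paired (0%) and the unpaired t-test (0.0217%). With the paired form 8 passed the criterion (5.48% of all genes). Leaving out each array in turn gave 6 to 18 called and 10 to 21 past the criterion with differentiation, 0 to 8 and 3 to 10 between cabozantinib and differentiated PMOs, and 5 to 20 and 9 to 26 between cabozantinib and undifferentiated PMOs, where an arm of 1 array is assumed to vary like the others. No value changed sign in any alternative among the genes past a threshold. The causes were not tested.

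Replicate numbers did not pair the arrays: deviations from the group means of same-numbered arrays correlated at -0.51 (undifferentiated and differentiated), -0.53 (undifferentiated and cabozantinib) and 0.26 (differentiated and cabozantinib) over 27218 probes. With no replicate block 13, 4 and 13 genes were called in the 3 comparisons in the order above (13.0%, 12.4% and 24.1% of all genes). In that fit 18, 8 and 20 passed the criterion (22.5%, 26.5% and 35.7% of all genes). In a fit chosen after seeing the data, the block with the undifferentiated numbers exchanged gave 19, 14 and 28 called (25.5%, 30.4% and 44.3% of all genes). It gave 20, 9 and 22 past the criterion (25.2%, 29.7% and 39.1% of all genes). Slide could not be fitted as a term, since both cabozantinib arrays lie on a slide of their own. Dim probes limit what is known of Bmp6, Grem1, Bmpr1b and Lefty1, which were at background in at least 1 group.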
